A study of Mus musculus with 54 samples.

Results

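Expression of 10 genes linked to quiescence in naive T cells was followed in all libraries of 2 RNA-sequencing experiments. The genes were chosen by name, with earlier results of these data known. They are Krüppel-like factor genes Klf2, Klf3, and Klf6, forkhead genes Foxo1 and Foxp1, HMG box genes Tcf7 and Lef1, and Bach2, Satb1, and Tob1. They are 10 of the 55385 genes in each count table, and all of them had reads and were tested, among 32290 genes with at least 1 read in the CD5/CD6 experiment and 27780 in the LAT experiment. The CD5/CD6 experiment compared naive CD4+ T cells of WT, Cd5-/-, Cd6-/-, and Cd5-/-Cd6-/- mice, all on a C57BL/6 background, purified with a magnetic kit from lymph nodes and spleens that had been pooled. The Cd5-/- allele had been backcrossed to that strain, and Cd5-/-Cd6-/- mice carry 1 large germline deletion on chromosome 19 that removes parts of both genes and what lies between them. The LAT experiment compared WT and Lat-/- naive CD4+ T cells that were both sorted from Lat fl-dtr maT-Cre mice, where WT cells were human DTR positive (hDTR+) and Lat-/- cells were hDTR-, so the transgene that expresses Cre in T cells was shared by both groups. Mice were 8–10 wk old. RNA was taken from unstimulated cells (0 h) or after 4 h or 20 h on plate-bound anti-CD3 (3 µg/ml) with anti-CD28 (1 µg/ml). There were 3 libraries per genotype and time. The paper does not state whether unstimulated cells were kept in culture before RNA was taken. The libraries of a condition were prepared as independent samples, but the labels do not say whether they came from separate animals, so p-values measure the spread between these libraries. On GRCm38, the genes lie as follows: Klf2 at chr8:72319033-72321656 (plus strand), Klf3 at chr5:64803388-64832901 (plus strand), Klf6 at chr13:5861482-5870394 (plus strand), Foxo1 at chr3:52268336-52353221 (plus strand), Foxp1 at chr6:98925338-99522721 (minus strand), Tcf7 at chr11:52252371-52283331 (minus strand), Lef1 at chr3:131110471-131224356 (plus strand), Bach2 at chr4:32238804-32586108 (plus strand), Satb1 at chr17:51736187-51833290 (minus strand), and Tob1 at chr11:94211454-94215495 (plus strand).

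Naive T cells circulate through blood and lymphoid organs for long periods without dividing, and several transcription factors maintain this state. KLF2 and FOXO1 sustain genes for egress from lymph nodes and for survival, among them the sphingosine phosphate receptor gene S1pr1 and the IL-7 receptor gene Il7r. TCF1 (the product of Tcf7) and LEF1 act in T cell development and in naive and memory cells, BACH2 restrains effector genes by competing with AP-1 factors, FOXP1 holds back exit from quiescence, and SATB1 organizes chromatin in T cells. TOB1 differs from the others, since it is not a DNA-binding factor but an antiproliferative protein that recruits a deadenylase to mRNA, and the group is therefore called quiescence regulators here. Engagement of the T cell receptor signals through the adaptor LAT, whereas CD5 and CD6 are surface receptors that are phosphorylated upon that engagement and dock other signaling proteins.

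Libraries held 20554354 to 45222554 counts in the CD5/CD6 experiment and 17784644 to 28501095 in the LAT experiment, and levels are given as CPM (counts scaled to a common library total, with edgeR's TMM factors). Lat had 5.69 to 19.1 CPM in Lat-/- libraries and 92.2 to 351 CPM in WT libraries. Among stimulated libraries, Cd5 had 11.4 to 150.3 CPM in Cd5-/- cells against 1004 to 1684 CPM in WT cells. At 0 h, the library labelled Cd5-/- replicate 2 held 719 CPM of Cd5 and 329 of Cd6. The library labelled Cd6-/- replicate 2 held 172 and 1203, so both went against their labels. Cd5 at 0 h was as low as 105 CPM in Cd5-/- and as high as 724 CPM in Cd6-/- libraries. Gamma delta T cell markers summed to 37.4 CPM in the first library, against 91.8 and 101 CPM in the other Cd5-/- libraries. In the second they summed to 88.3 CPM, against 31.7 and 63.8 CPM in the other Cd6-/- libraries. Whether the libraries had been exchanged was not tested. Labels were used as given, and leaving both libraries out changed none of the 100 calls of members in which they take part. Counts over all genes were less stable: genes called against WT cells at 0 h went from 20 to 209 in Cd5-/- and from 0 to 20 in Cd6-/- cells without them. CD4 T cell markers were present in every library. Summed CPM of 9 B cell markers were 125 to 654 in WT libraries of the CD5/CD6 experiment at 0 h and 2.57 to 4.45 at 20 h, those of 9 myeloid markers 155 to 339 and 2.25 to 3.61, and those of 3 erythroid markers 795 to 1849 and 6.74 to 34.2. In the sorted cells of the LAT experiment, B cell markers summed to at most 8.47 CPM, myeloid markers to at most 19.0, and erythroid markers to at most 2.34. Of the B cell markers, Ms4a1 and Pax5 were each at 0 in 16 of 18 libraries. Cd79a, Cd79b, and Bank1 had reads in all 18, up to 1.09, 3.75, and 6.64 CPM. In bulk RNA, fewer cells of a type and less RNA per cell cannot be told apart.

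Sequences before the transcription start are shown for 3 members with different courses, Klf2 and Tob1, which fell, and Bach2, which was not called lower. They are 250 bases each, from RefSeq on GRCm38.p6 and on the plus strand: chr8:72318812-72319061 for Klf2, chr11:94211204-94211453 for Tob1, and chr4:32417185-32417434 for Bach2. Capitals mark CACCC, letters bound by KLF proteins, or CTTTGA, letters bound by TCF1 and LEF1, on either strand (read as GGGTG and TCAAAG on the other).
Klf2: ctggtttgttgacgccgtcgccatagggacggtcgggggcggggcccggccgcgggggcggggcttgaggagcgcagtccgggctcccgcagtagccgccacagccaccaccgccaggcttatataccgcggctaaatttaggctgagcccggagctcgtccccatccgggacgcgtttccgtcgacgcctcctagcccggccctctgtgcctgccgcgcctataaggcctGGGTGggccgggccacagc
Tob1: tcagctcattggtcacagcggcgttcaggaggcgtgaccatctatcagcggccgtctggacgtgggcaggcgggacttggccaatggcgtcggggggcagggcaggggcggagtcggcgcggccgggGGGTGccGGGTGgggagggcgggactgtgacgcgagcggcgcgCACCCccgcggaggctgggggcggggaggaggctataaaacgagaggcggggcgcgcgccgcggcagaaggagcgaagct
Bach2: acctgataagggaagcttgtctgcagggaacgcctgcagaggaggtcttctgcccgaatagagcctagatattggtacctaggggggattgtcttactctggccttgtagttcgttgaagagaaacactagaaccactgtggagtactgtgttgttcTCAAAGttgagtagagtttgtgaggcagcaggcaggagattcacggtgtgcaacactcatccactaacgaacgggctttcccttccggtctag
The Klf2 window held CACCC once and overlapped an annotated exon over 29 bases, and the Tob1 window held it 3 times. The Bach2 window held CTTTGA once and lay inside the gene, which spans 32238804 to 32586108 on chromosome 4. CACCC stood in 15 of the 20 RefSeq start windows of the members (7 of 10 genes), against 52.0% of 32851 windows of that length over all genes. CTTTGA stood in 3 of the 20 (Foxp1, Lef1, and Bach2), against 13.8%, and neither GTAAACA (forkhead proteins) nor TGANTCA (BACH and AP-1 proteins), present in 3.17% and 6.75% of all windows, was found in a member's window. The windows were not all alike in base composition, with 71.2% G and C for Klf2, 73.6% for Tob1, and 50.4% for Bach2, against a median of 52.4%. A match describes these letters only, and does not show that a protein binds there.

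Levels before stimulation differed widely between members. Per kilobase of exon, unstimulated WT cells from the CD5/CD6 experiment held most Tcf7 (614 ± 41.7 CPM per kb, SD, n = 3), then Klf2 (330.1 ± 65.5) and Klf6 (129 ± 81.8). Lef1 (76.9 ± 5.72), Foxo1 (68.4 ± 8.30), and Satb1 (54.96 ± 5.47) followed, then Tob1 (35.9 ± 9.20) and Klf3 (32.5 ± 3.85), and Foxp1 (21.2 ± 1.08) and Bach2 (17.2 ± 2.11) were lowest. The neighbours Klf6 and Lef1 and the neighbours Tob1 and Klf3 differed by less than the SD of the first of each pair. At 20 h the order of the same cells had changed: Tcf7 (131 ± 26.4 CPM per kb) remained first, Bach2 (23.6 ± 7.01), Lef1 (18.2 ± 3.59), and Foxp1 (16.9 ± 5.37) came next within each other's spread, and Klf2 (9.09 ± 1.57) and Klf3 (3.04 ± 0.276) stood near the end.

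Most of the quiescence regulators fell when WT cells from the CD5/CD6 experiment were stimulated. After 4 h, 7 of the 10 were lower, and after 20 h, 8 were lower, by 4.24- to 36.3-fold, whereas none was called higher. Called genes passed 2 thresholds, a fold change of more than 2 and an adjusted p below 0.05, in edgeR's quasi-likelihood test. Of all genes tested, 11.1% were called lower and 8.24% higher at 4 h, and 17.3% lower and 12.3% higher at 20 h. The median log2 fold change of the members was -1.74 at 4 h and -2.60 at 20 h, against -0.02 and 0.06 over the 10792 genes averaging 50 counts or more, of which 20.7% and 24.4% were called lower. The part of the B cell, myeloid, and erythroid markers that fell over the same hours was not tested. In the sorted WT cells of the LAT experiment, where those markers were lower at 0 h, the same 8 members were called lower at 20 h. At 4 h, however, only 2 members were called lower there, against 7 in WT cells from the CD5/CD6 experiment.

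**Figure D1:**
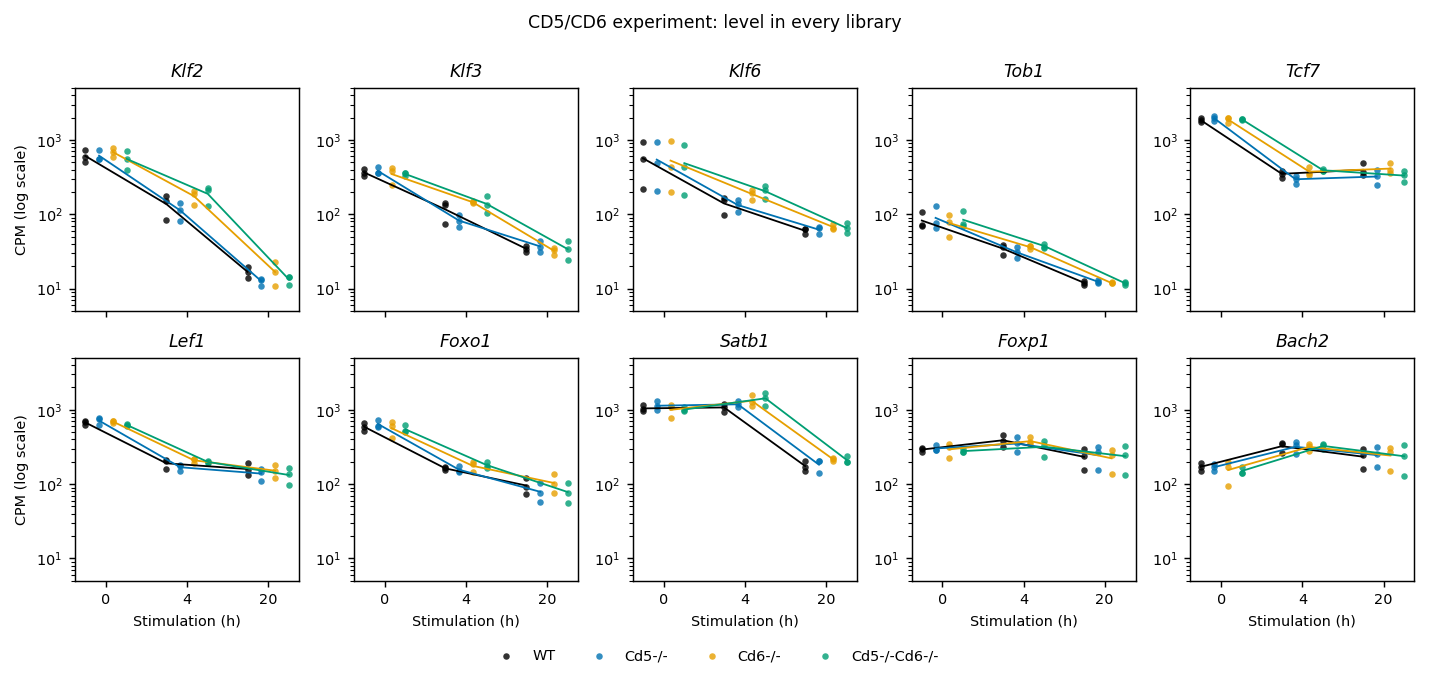
Level of each member in the CD5/CD6 experiment, in CPM on a log axis, against hours of stimulation; points are libraries, colors are genotypes, and lines join the means of 3 libraries. In WT cells, Klf2 ran from 499 to 739 CPM at 0 h to 14.0 to 19.8 CPM at 20 h, and Satb1 fell only between 4 h and 20 h.

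Klf2, Klf3, Klf6, and Tob1 fell by 4 h and fell further by 20 h. Klf2, a zinc finger activator of homing and egress genes, held 739, 592, and 499 CPM in the WT libraries at 0 h, 84.7, 150.3, and 176 CPM at 4 h, and 19.8, 16.6, and 14.0 CPM at 20 h. These times did not overlap. Its log2 fold change was -2.16 (SE 0.22, adjusted p 9.71e-14) at 4 h and -5.18 (SE 0.25, adjusted p 4.49e-30) at 20 h, and -3.03 (SE 0.23) between 4 h and 20 h. Klf3, a zinc finger repressor, held 410.2, 362, and 324 CPM at 0 h, 74.9, 132, and 142 CPM at 4 h, and 37.3, 34.3, and 31.1 CPM at 20 h, again without overlap. Its log2 fold changes against 0 h were -1.65 (SE 0.19) and -3.42 (SE 0.20). Tob1 held 107, 69.6, and 70.6 CPM, then 28.6, 35.8, and 39.1 CPM, then 11.2, 11.9, and 12.7 CPM, with log2 fold changes of -1.25 (SE 0.19) and -2.78 (SE 0.20). Its 4 h change was -0.91 and under 2-fold without the libraries numbered 1. Between 4 h and 20 h, 5 members were called lower, these 4 and Satb1, where 12.2% of all genes were.

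Klf6, a zinc finger factor known as an early response gene, had the widest spread before stimulation. WT libraries 1, 2, and 3 held 935, 549, and 217 CPM at 0 h, 97.1, 154, and 168 CPM at 4 h, and 54.2, 62.7, and 62.6 CPM at 20 h. The times did not overlap, and the log2 fold changes against 0 h were -2.02 (SE 0.34) and -3.24 (SE 0.36). Without the libraries numbered 1 they were -1.25 and -2.61, both still called. At 0 h, library 1 was highest and library 3 lowest in all 4 genotypes: the libraries held 937, 488, and 208 CPM in Cd5-/-, 956, 431, and 197 CPM in Cd6-/-, and 853, 429, and 179 CPM in Cd5-/-Cd6-/- cells. Nr4a1, an immediate early gene of receptor signaling named here after its values were seen, followed the same order in all 4 genotypes. It held 232, 202, and 131 CPM in WT and 391, 225, and 87.7 CPM in Cd5-/-Cd6-/- cells. It belongs to 10 regulators of activated and effector cells, of which Bhlhe40, Id2, and Nfil3 also followed that order in WT cells. Batf, Egr2, Irf4, Myc, Prdm1, and Tbx21 did not. WT libraries held 22.3, 20.7, and 29.2 CPM of Irf4 and 123, 143, and 125 CPM of Myc. What differed between library numbers is not given by the labels, and its part in the fall of Klf6 was not tested. Without the libraries numbered 1, the 4 h change of Klf6 was -0.63 in Cd6-/- and -0.43 in Cd5-/-Cd6-/- cells and no longer called, from -1.49 and -1.26 with all libraries. It was -1.25 from -2.03 in Cd5-/- cells, and the 20 h changes were -2.40, -2.17, and -2.12 from -3.13, -2.97, and -2.90 in the 3 knockouts, all still called. For the other 9 members the gaps were smaller, with a median ratio of highest to lowest of 1.24. Library 1 was still the highest of 3 in 33 of the 36 sets of 1 member in 1 genotype at 0 h. These sets come from the same libraries and are not independent, and whether the order holds over all genes was not tested.

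**Figure D2:**
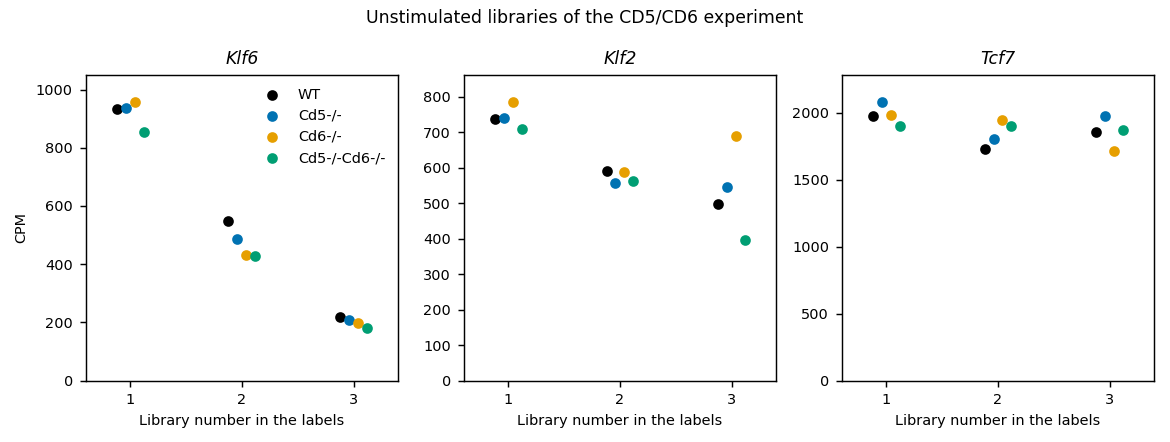
CPM of Klf6, Klf2, and Tcf7 in unstimulated libraries of the CD5/CD6 experiment against the library number in the labels; points are libraries and colors are genotypes. Klf6 ran from 853 to 956 CPM in libraries 1 and from 179 to 217 CPM in libraries 3, whereas Tcf7 stayed between 1716 and 2076 CPM.

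Tcf7, Lef1, and Foxo1 had fallen by 4 h and changed by less than 2-fold afterwards. Tcf7 held 1978, 1726, and 1855 CPM in WT libraries at 0 h, 312, 386, and 352 CPM at 4 h, and 486, 370.2, and 334 CPM at 20 h, so that only the unstimulated libraries stood apart. Its log2 fold change was -2.40 (SE 0.16, adjusted p 1.47e-21) at 4 h, -2.22 (SE 0.16) at 20 h, and 0.18 (SE 0.16) between 4 h and 20 h. Lef1, which binds the same DNA letters as TCF1, held 693, 619.7, and 716 CPM, then 159.6, 204, and 208 CPM, then 194, 154, and 131 CPM. Its 4 h and 20 h libraries overlapped, and its log2 fold changes against 0 h were -1.83 (SE 0.17) and -2.08 (SE 0.17). Foxo1, a forkhead factor that sustains Il7r, held 666, 523, and 588 CPM at 0 h, 169, 166, and 154 CPM at 4 h, and 122, 91.9, and 72.9 CPM at 20 h, with log2 fold changes of -1.86 (SE 0.19) and -2.63 (SE 0.20). Its step from 4 h to 20 h, -0.77 (SE 0.19, adjusted p 0.000633), passed the p threshold but not the fold threshold, although the groups did not overlap.

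Satb1 fell late. WT libraries held 1159.8, 956, and 1022 CPM at 0 h and 924, 1202, and 1105 CPM at 4 h, groups that overlapped, with a log2 fold change of 0.04 (SE 0.16). At 20 h they held 207, 169.6, and 149 CPM, and the change from 4 h was -2.62 (SE 0.17, adjusted p 2.62e-22). Foxp1 and Bach2 were not called lower at either time. Foxp1 held 298, 302, and 275 CPM at 0 h, 463, 386, and 320.1 CPM at 4 h, and 301, 242, and 155 CPM at 20 h, with log2 fold changes of 0.42 (SE 0.22, adjusted p 0.165) and -0.33 (SE 0.22, adjusted p 0.273). Bach2 held 193, 168, and 151 CPM at 0 h and 359, 352, and 261 CPM at 4 h, which did not overlap, and 298, 244, and 160.1 CPM at 20 h, which overlapped the 0 h libraries. Its 4 h log2 fold change of 0.92 (SE 0.22, adjusted p 0.000441) lay just under 2-fold, and at 20 h it was 0.46 (SE 0.22, adjusted p 0.0991).

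**Figure D3:**
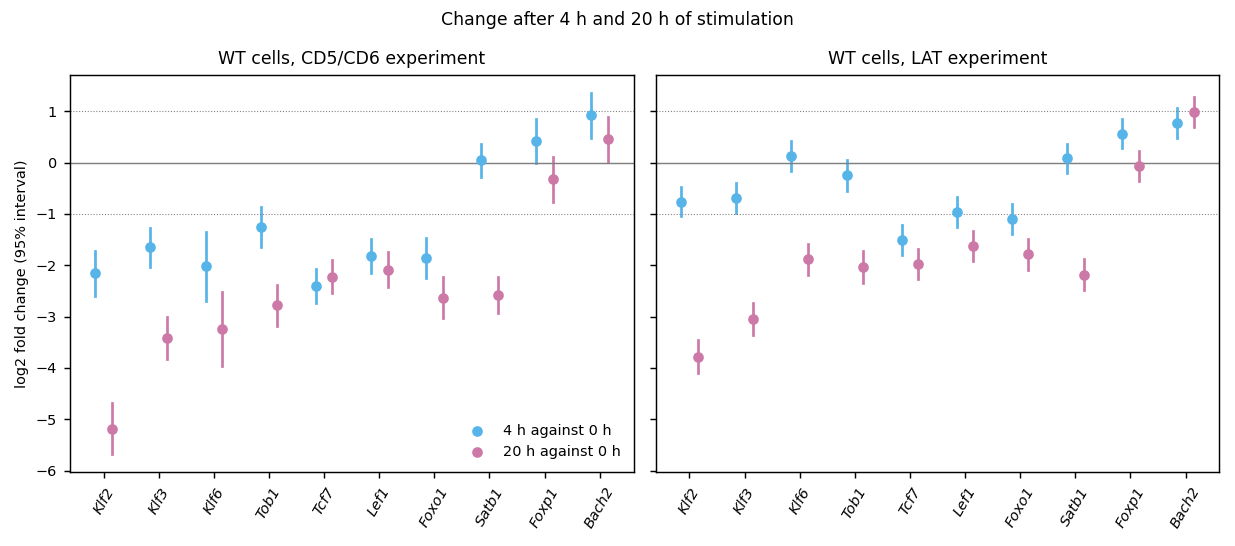
Log2 fold change of each member in WT cells of both experiments at 4 h and 20 h against 0 h; bars are 95% intervals and dotted lines mark a 2-fold change. In the CD5/CD6 experiment Tcf7 was at -2.40 and -2.22, Klf2 went from -2.16 to -5.18, and Satb1 from 0.04 to -2.58.

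Cells lacking CD5, CD6, or both gave the same number of falls as WT cells when all libraries were used. In Cd5-/-, Cd6-/-, and Cd5-/-Cd6-/- cells, 7 members were called lower at 4 h, where 11.3%, 10.2%, and 9.66% of all genes were, and 8 at 20 h, where 17.5%, 16.8%, and 18% were. Without the libraries numbered 1, WT cells had 6 falls called at 4 h and Cd5-/- cells had 7. Cd6-/- and Cd5-/-Cd6-/- cells had 5 each, since Klf6 and Tob1 (-0.87 and -0.90) were no longer called in these 2 genotypes. The share of all genes called without those libraries is not given here. Klf2 was at -5.61, -5.36, and -5.39 at 20 h on the log2 scale, and Satb1 was at 0.06, 0.41, and 0.50 at 4 h and at -2.64, -2.20, and -2.25 at 20 h. From 4 h to 20 h, 5, 5, and 6 members were called lower, where 12.5%, 12.5%, and 13.4% of all genes were. Foxo1 in Cd5-/- cells was at the threshold of that step (-0.99, and -1.02 and called with the replicate number as a block). Bach2 was called higher at 4 h in Cd6-/- cells (1.03, SE 0.22) and Cd5-/-Cd6-/- cells (1.12, SE 0.22), where 7.72% and 7.57% of all genes were. With library totals in place of TMM factors, these 2 values were 0.83 and 0.87 and not called. Leaving out 1 library number also ended each call: Bach2 was at 0.86 in Cd6-/- cells without number 3 and at 0.98 in Cd5-/-Cd6-/- cells without number 2.

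Compared directly with WT cells, no member differed past the thresholds in any CD5 or CD6 knockout at 0, 4, or 20 h. Over these 90 values, edgeR and DESeq2 each called 0, and 3 had an unadjusted p under 0.05. The share of all genes called was 0.0619%, 0.0743%, and 0.0186% in Cd5-/- cells at 0, 4, and 20 h, 0%, 0.0031%, and 0.0186% in Cd6-/- cells, and 0.0248%, 0.0434%, and 0.0434% in Cd5-/-Cd6-/- cells. These shares rest on few genes: with library totals, the genes called in Cd5-/- cells went from 20 to 1 at 0 h and from 24 to 11 at 4 h, while the members stayed uncalled. Without both doubtful libraries, the members lay between -0.02 and 0.29 in Cd5-/- and between -0.22 and 0.25 in Cd6-/- cells at 0 h. Log2 fold changes of the members lay between -0.50 and 0.54, and 88 of the 90 95% intervals lay within 2-fold in either direction. The 2 that reached past it were those of Klf6 at 4 h in Cd6-/- cells (0.43, SE 0.33, 95% interval -0.23 to 1.08) and Cd5-/-Cd6-/- cells (0.54, SE 0.33, 95% interval -0.11 to 1.20). The lowest value was that of Klf3 in Cd5-/- cells at 4 h, -0.50 (SE 0.19, 95% interval -0.87 to -0.13), with an adjusted p of 0.762, the smallest of the 90. Klf3 libraries held 66.8, 81.9, and 97.6 CPM there, against 74.9, 132, and 142 CPM in WT cells.

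Differences between the responses of knockout and WT cells gave 0 calls in 60 values by edgeR and by DESeq2, with 3 at an unadjusted p under 0.05. They ran from -0.57 to 0.76, and 52 of the 60 intervals lay within 2-fold. Of all genes, 0.0031% and 0.0031% were called at 4 h and 20 h in Cd5-/- cells, 0% and 0.0031% in Cd6-/- cells, and 0% and 0% in Cd5-/-Cd6-/- cells. The widest intervals were those of Klf6, up to -0.16 to 1.69 in Cd5-/-Cd6-/- cells at 4 h. A p that misses the threshold does not show that responses were equal, and the intervals bound how far they could differ.

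Most members were higher in stimulated Lat-/- cells than in stimulated WT cells. At 20 h, 8 members were higher in Lat-/- than in WT cells, by 3.25- to 22.8-fold, where 12.1% of all genes were called higher, and at 4 h 6 were (Klf2, Klf3, Klf6, Tcf7, Lef1, and Tob1), where 5.51% were. Before stimulation none differed past the thresholds in edgeR or DESeq2, with 1 at an unadjusted p under 0.05, where 0.961% of all genes were called. The log2 fold changes at 0 h lay between -0.23 and 0.43, the highest being that of Klf6 (0.43, SE 0.15, 95% interval 0.14 to 0.72). The median of the members was 0.05 at 0 h, 1.41 at 4 h, and 2.48 at 20 h, against 0.01, 0.03, and -0.0012 over genes averaging 50 counts or more.

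Markers of cell types also differed between the genotypes, and their part in these results was not tested. At 20 h, the 6 CD4 T cell markers summed to 4511 to 5116 CPM in Lat-/- and 2522 to 2927 CPM in WT libraries, with 5 of them wholly above WT. The 9 myeloid markers summed to 14.5 to 19.0 CPM against 3.38 to 3.89 CPM, in Lat-/- libraries mostly from the Fc receptor gene Fcgr3 (11.0 to 15.3 against 0.0369 to 0.385 CPM), and C1qa, C1qb, and Cd14 were at 0 in all 6 libraries. At 0 h the myeloid sums overlapped, but the 3 regulatory T cell markers summed to 38.0 to 63.4 CPM in Lat-/- and 102 to 165 CPM in WT libraries, and the 4 gamma delta T cell markers to 14.4 to 16.4 and 31.1 to 44.7 CPM. At 20 h the regulatory T cell markers, which include the activation-induced Il2ra, summed to 12.1 to 55.2 and 757 to 794 CPM, and the gamma delta markers to 8.14 to 10.7 and 5.86 to 6.71 CPM.

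**Figure D4:**
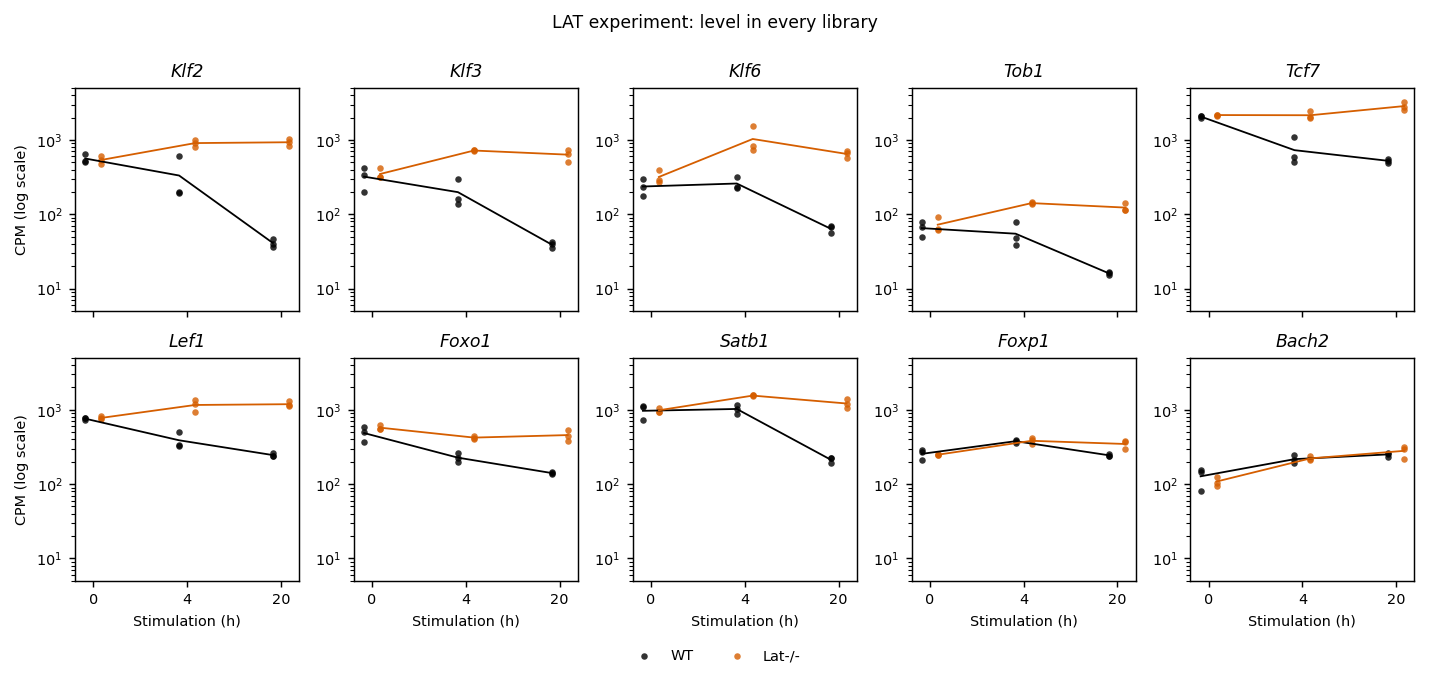
Level of each member in the LAT experiment, in CPM on a log axis, against hours of stimulation; points are libraries, colors are genotypes, and lines join the means of 3 libraries. At 20 h, Klf2 ran from 36.7 to 46.1 CPM in WT cells and from 842 to 1029 CPM in Lat-/- cells, whereas the genotypes overlapped for Bach2 at every time.

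In WT cells of the LAT experiment, 2 members were called lower at 4 h, Foxo1 (-1.10, SE 0.15) and Tcf7 (-1.51, SE 0.15), where 9.29% of all genes were lower and 8.05% higher. At 20 h, 8 were lower, the same members as in the CD5/CD6 experiment, where 12.7% of genes were lower and 10.8% higher, and 5 fell between 4 h and 20 h, where 9.32% did. WT library 3 stood apart at 4 h. The 3 libraries held 198, 192, and 607 CPM of Klf2, 507, 589, and 1091 CPM of Tcf7, and 331, 326, and 509 CPM of Lef1, with library 3 highest each time, and the log2 fold change of Klf2 over all 3 libraries was -0.76 (SE 0.15, adjusted p 1.75e-06). Irf4, a factor induced by receptor signaling, was lowest in that library, at 1821, 2119.6, and 1234 CPM. Of the same 10 regulators of activated and effector cells, Myc, Nr4a1, and Egr2 were also lowest there. Batf, Nfil3, Prdm1, and Tbx21 were highest in that library, and Bhlhe40 and Id2 lay between. Without the libraries numbered 3, 4 members were called at 4 h: Klf2 (-1.61), Tcf7 (-1.91), and Lef1 (-1.21) were lower and Bach2 (1.01) was higher. Foxo1 (-0.95) was not called, and the share of all genes called in that setting is not given here. From 4 h to 20 h, Klf2 fell by 3.02 on the log2 scale with all libraries and by 2.21 without those numbered 3. What set this library apart was not tested. Satb1 again fell after 4 h, from 1082, 719.7, and 1109.6 CPM at 0 h and 878, 1168, and 1037 CPM at 4 h to 227, 224, and 189.7 CPM at 20 h.

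In Lat-/- cells no member was called lower at 4 h or 20 h, where 3.62% and 2.07% of all genes were. At 4 h 3 were called higher and at 20 h 2, where 3.08% and 2.14% were. The members' median log2 fold change was 0.71 at 4 h and 0.69 at 20 h, against -0.0016 and -0.012 over genes averaging 50 counts or more. Values were below 0 for 2 members at 4 h and 1 at 20 h. Among uncalled members, Klf2 ran from 477 to 608 CPM at 0 h, 816 to 1009 at 4 h, and 842 to 1029 at 20 h. Tob1 ran from 61.7 to 92.6, 139 to 144, and 113 to 142 CPM. Klf6 held 271, 289, and 393 CPM at 0 h, 1536, 823, and 734 CPM at 4 h, and 660.4, 717, and 569 CPM at 20 h. Its stimulated libraries did not overlap the unstimulated ones, and its log2 fold changes were 1.70 (SE 0.15, adjusted p 3.61e-27) and 1.03 (SE 0.15, adjusted p 3.08e-10). Bach2 rose from 105, 94.6, and 125 CPM to 219, 211, and 236 CPM and 319.6, 301, and 221 CPM, with log2 fold changes of 1.04 (SE 0.15) and 1.37 (SE 0.15). In WT cells it was at 0.98 at 20 h, just under 2-fold. Klf3 rose at 4 h, 1.05 (SE 0.15), from 313, 316, and 415 CPM to 738, 699, and 725 CPM. Several of these values lay close to 2-fold: leaving out 1 library number gave 1 to 4 members called at 4 h and at 20 h, and Klf3 at 4 h was 0.99 without number 2. Foxo1 was the member with the most negative values, -0.44 (SE 0.15, adjusted p 0.0199) at 4 h and -0.33 (SE 0.15, adjusted p 0.16) at 20 h, under 2-fold. From 4 h to 20 h none was called by edgeR or DESeq2, with 4 at an unadjusted p under 0.05, where 2.1% of all genes were called lower.

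Library values showed the size of these gaps. At 20 h Klf2 held 46.1, 36.7, and 40.1 CPM in WT cells and 842, 1029, and 925 CPM in Lat-/- cells, differing by 4.51 (SE 0.17, adjusted p 5.51e-152) on the log2 scale. Klf3 held 35.0, 41.9, and 40.1 CPM and 651, 741, and 511 CPM (4.02, SE 0.17). Neither gene overlapped between genotypes. Tcf7 held 546, 529, and 496 CPM and 2817, 3208, and 2555 CPM (2.45, SE 0.15), and Lef1 held 241, 258, and 238 CPM and 1151, 1307, and 1116 CPM (2.28, SE 0.15). Satb1 held 227, 224, and 189.7 CPM and 1215, 1382, and 1054 CPM, a log2 fold change of 2.51 (SE 0.15), after 0.60 (SE 0.15) at 4 h. These 3 genes did not overlap at 20 h either. Tob1 held 16.1, 16.6, and 15.0 CPM and 114, 142, and 113 CPM (2.95, SE 0.17), Klf6 differed by 3.34 (SE 0.16), and Foxo1 by 1.70 (SE 0.15), the smallest of the 8. Foxp1 (0.51, SE 0.15, adjusted p 0.00212) was under 2-fold, and Bach2 (0.16, SE 0.15, adjusted p 0.493) overlapped between genotypes.

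The response of Lat-/- cells differed from that of WT cells for 6 members at 4 h and 8 at 20 h, all higher, where 4.37% and 10.1% of all genes were. At 20 h the differences ran from 1.46 for Foxo1 to 4.57 for Klf2. At 4 h, Klf2 (1.51) and Tob1 (1.21) were called, but Klf2 was at 0.97 without the libraries numbered 2 and Tob1 at 0.95 without those numbered 1. Without those numbered 3, which include the WT library that stood apart, Klf2 was at 2.47, and at 2.24 in Lat-/- against WT cells at 4 h. Satb1 (0.57) and Foxo1 (0.66) were under 2-fold at 4 h and called at 20 h, and Foxp1 (0.55) and Bach2 (0.39) were under it at both times.

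**Figure D5:**
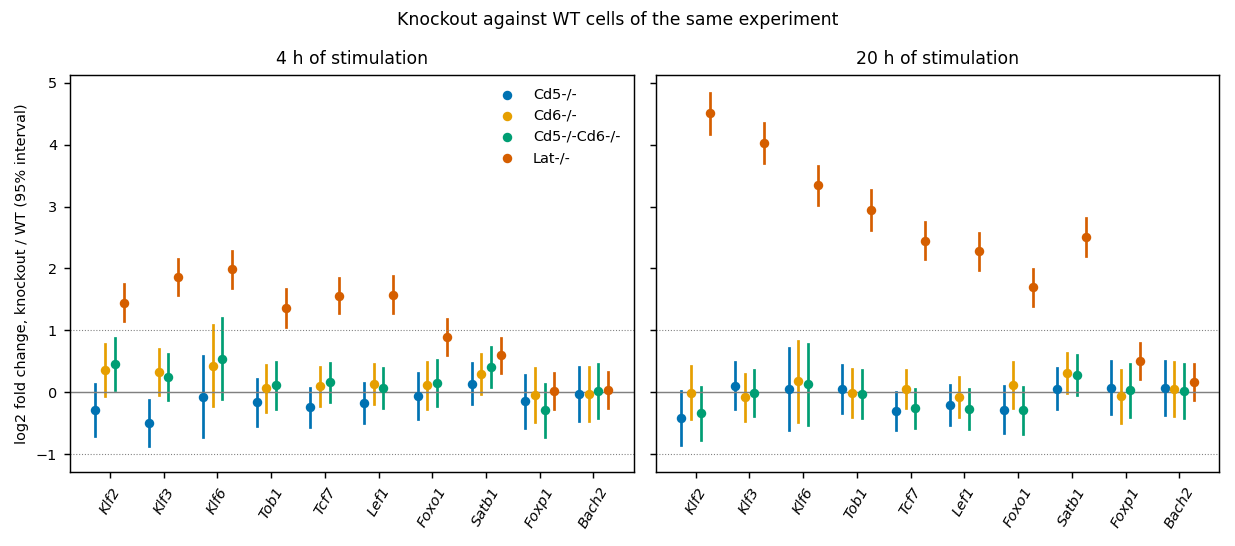
Log2 fold change of each member in knockout against WT cells of the same experiment; bars are 95% intervals and dotted lines mark a 2-fold change. Values of the CD5 and CD6 knockouts lay between -0.50 and 0.54, whereas those of Lat-/- cells reached 4.51 for Klf2 at 20 h.

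Related genes were counted in the same way, as a description. Of genes averaging 50 counts or more in the CD5/CD6 experiment, 20.7% were lower and 18.2% higher in WT cells at 4 h, and 24.4% and 25.7% at 20 h. Of 10 known targets of KLF2, FOXO1, or TCF1, WT cells had 8 lower at 4 h and 9 lower at 20 h in the CD5/CD6 experiment, with medians of -1.68 and -3.74. Il7r (-5.85, SE 0.26), S1pr1 (-5.41, SE 0.24), and Txnip (-5.23, SE 0.27), whose product limits glucose uptake, fell most at 20 h. In Lat-/- cells Il7r (1.79, SE 0.15) and S1pr1 (1.55, SE 0.15) rose at 20 h, and Txnip was at -0.18. Of 22 paralogs of the members, 5 were lower and 4 higher at 4 h, and 11 lower and 1 higher at 20 h. The paralog counts at 4 h thus lay near the shares of all these genes. Klf4 (-4.35, SE 0.66), Klf13 (-2.77, SE 0.21), and Btg1 (-2.59, SE 0.18), a relative of Tob1, fell, and Klf9 rose (1.21, SE 0.29). Klf4 and Klf9 also moved in Lat-/- cells at 20 h, by -3.73 and 1.12, next to -3.32 and 1.43 in WT cells of that experiment.

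Of 15 other quiescence genes, 5 were lower and 3 higher at 4 h, and 9 lower and 1 higher at 20 h. Cdkn1b (-3.63, SE 0.19), the gene of the cell cycle inhibitor p27, and Zfp36l2 (-3.01, SE 0.26), whose product promotes mRNA decay, fell, and Gfi1, a zinc finger repressor, rose (2.25, SE 0.20). Btg1, Btg2, and Cdkn1b each belong to more than 1 of these lists. Of 10 regulators of activated and effector cells, 6 were higher and 2 lower at 4 h, and 5 higher and 2 lower at 20 h. Irf4 (5.88, SE 0.19), Tbx21 (4.14, SE 0.52), the gene of T-bet, and Bhlhe40 (3.67, SE 0.29) rose at 20 h, whereas Prdm1 (-7.08, SE 0.50), the gene of BLIMP1, and Id2 (-1.28, SE 0.18) fell.

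Some effector regulators rose in Lat-/- cells. That no quiescence regulator was called lower there is near the share of all genes, 3.62% at 4 h and 2.07% at 20 h. At 4 h, 6 of the 10 effector regulators were higher and none lower in Lat-/- cells, and at 20 h 5 and none. Of genes averaging 50 counts or more, 5.39% and 4.23% were higher and 6.61% and 2.93% lower. Prdm1, among those higher at 20 h (1.04, SE 0.20), went the other way in WT cells of that experiment (-4.06, SE 0.27). Irf4 held 5.03, 3.45, and 5.29 CPM at 0 h and 258, 165, and 324 CPM at 4 h in Lat-/- cells. In WT cells it held 22.0, 12.9, and 23.7 CPM and then 1821, 2119.6, and 1234 CPM. Its level was lower in Lat-/- cells at every time, with log2 fold changes at 0, 4, and 20 h of -2.09 (SE 0.17), -2.79 (SE 0.16), and -3.53 (SE 0.16), whereas its rise at 4 h was 5.76 (SE 0.19) in Lat-/- and 6.46 (SE 0.19) in WT cells. Of the targets of KLF2, FOXO1, or TCF1, 8 were higher and 1 lower in Lat-/- than in WT cells at 4 h, and 7 and none at 20 h, where 11.6% and 21.8% of those genes were higher and 12.5% and 22.3% lower.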

How the data were processed

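RNA-seq of naive CD4+ T cells was analyzed from 2 deposited tables of raw counts per gene, 36 libraries of the CD5/CD6 experiment and 18 of the LAT experiment, all columns used (0 left out). The authors made stranded poly(A) libraries, mapped single reads to GRCm38 with STAR, and counted with featureCounts. The annotation release and the strand setting are not given in the sources used here, and reads of the small genes that overlap some members cannot be told apart if strand was ignored. The authors' own tests used DESeq2. Gene IDs were named from the reference annotation (55144 of 55385, matched without version suffix).

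Genes with at least 1 read in an experiment were tested with edgeR 4.0.16 (quasi-likelihood test, TMM factors, 1 coefficient per genotype and time, all libraries of an experiment in 1 fit) in R 4.3.3 with limma 3.58.1. The tables were normalized separately and not fitted together. P-values were adjusted over all genes tested (Benjamini-Hochberg, two-sided). Intervals are 95% intervals of the fitted log2 fold change. DESeq2 1.42.0 was an alternative, beside RLE factors, library totals, filterByExpr, only the groups compared, the replicate number as a block, each replicate number left out, and the adjusted p alone. Leaving out both 0 h libraries numbered 2 that went against their labels was chosen after seeing the data. Replicate numbers are shared between groups, but every pair's deviations correlated above 0.1 in only 13 of 27 comparisons of the CD5/CD6 experiment. In the LAT experiment they did in 1 of 11, so the fit without the block was kept. Direct comparisons of CD5 and CD6 knockouts with WT cells passed, except Cd5-/- at 0 h and Cd6-/- at 20 h, whereas no response difference of that experiment did. The intervals given for those direct comparisons do not use this pairing, and the block called no member in them. The script was tested on simulated data.

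The members and the gene lists were chosen with earlier results of these data known. All 10 members are named. Of each list, up to 3 genes per direction are named, those with the largest log2 fold change among genes called at 20 h in WT cells from the CD5/CD6 experiment with a mean of at least 50 counts. Start windows and their letters were read from RefSeq.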

Additional observations from a re-analysis of the deposited data

Results flagged for a closer look

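The response to stimulation differed between Lat-/- and WT cells of the LAT experiment by a test of the difference itself (the interaction of genotype and time in edgeR's quasi-likelihood test, 3 libraries per group). The difference in log2 fold change at 4 h, Lat-/- minus WT, was Klf2 1.51 (SE 0.21), Klf3 1.74 (SE 0.21), Klf6 1.56 (SE 0.21), Tcf7 1.497 (SE 0.20), Lef1 1.54 (SE 0.21), and Tob1 1.21 (SE 0.22), with adjusted p of at most 6.36e-07. At 20 h it was Klf2 4.57 (SE 0.22), Klf3 3.90 (SE 0.22), Klf6 2.92 (SE 0.21), Foxo1 1.46 (SE 0.21), Tcf7 2.39 (SE 0.21), Lef1 2.24 (SE 0.21), Satb1 2.49 (SE 0.21), and Tob1 2.80 (SE 0.22), with adjusted p of at most 5.04e-11. In all of these the WT response was the lower one.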

How the results depend on the processing

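Of 3900 values of single members under alternatives, 3817 kept their side of the thresholds, 22 lost and 61 gained a call, and 0 reversed. Direction was compared only where a value was called in the main fit or the alternative, so uncalled values may have changed sign. Of 390 counts of members called, 377 stayed within 1.5 times the reported count. With the adjusted p alone, counts rose in Cd6-/- cells from 4 h to 20 h (5 to 8). They also rose in WT cells of the LAT experiment at 4 h (2 to 7) and from 4 h to 20 h (5 to 9). In Lat-/- cells they rose at 4 h (3 to 9), at 20 h (2 to 8), and from 4 h to 20 h (0 to 2). Counts over all genes moved by more than 1.5 times in 10 of the comparisons under that rule. Their shares are not given here, so these rises cannot be told from a rise over all genes. With library totals in place of TMM factors, Lat-/- cells had 1 call at 4 h and 1 at 20 h. Leaving out each replicate number in turn gave 2 to 4 calls in WT cells of the LAT experiment at 4 h, and 1 to 4 in Lat-/- cells at 4 h and at 20 h. The replicate block changed 1 call, that of Foxo1 in Cd5-/- cells from 4 h to 20 h (-1.02, count 6 in place of 5).

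Counts over all genes moved by more than 1.5 times in 10 of the comparisons with the replicate block and in 16, 13, and 15 without replicate number 1, 2, and 3. Without both doubtful 0 h libraries, 6 of the 10 comparisons they enter moved by that much, among them Cd5-/- against WT at 0 h (20 to 209) and the Cd5-/- response difference at 20 h (1 to 28), and no member was called in any of the 6. Library totals moved the share of calls that were lower from 57.4% to 69.4% in WT cells from the CD5/CD6 experiment at 4 h, from 57.9% to 68.1%, 57.0% to 67.1%, and 56.05% to 68.96% in Cd5-/-, Cd6-/-, and Cd5-/-Cd6-/- cells at 4 h, from 53.6% to 67.1% in those of the LAT experiment at 4 h, from 54.1% to 43.3% there from 4 h to 20 h, and from 49.9% to 35.8% for the difference between the responses of Lat-/- and WT cells at 4 h. The cause was not tested. With 3 libraries per group, changes near 2-fold were not settled.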
